A study of Mus musculus with 6 samples.

Results

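Heterotrimeric G proteins and the RGS (regulator of G protein signaling) proteins were examined in bulk RNA-seq of the mouse cerebellum at postnatal day 1 (P1). Their genes were taken by name from the protein-coding rows of the count table. The rule covered every Gnb, Gng or Rgs followed by a number, *Gngt1*, *Gngt2*, the anchors *Rgs7bp* and *Rgs9bp*, and the named alpha subunit genes. It found 56 of 22046 protein-coding genes and of 54532 genes in all, namely 15 alpha, 6 beta and 12 gamma subunit genes, 21 RGS genes and the 2 anchors. *Gnb1l* is included by its name only, since its product is not a G protein beta subunit, and 4 processed pseudogenes with matching names were left out.

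The study compared 3 control libraries (Ctrl) with 3 conditional knockout libraries (cKO), all of cerebella. Ctrl came from Tox3f/f littermates without a Cre transgene, and cKO had the genotype Nestin-cre;Tox3f/f. Both groups carried the floxed *Tox3* alleles, and *Nestin-cre* directs recombination in neural progenitors and their descendants rather than in a single cerebellar cell type. It was present in the cKO group alone, so an effect of the transgene and one of the deletion cannot be told apart. *Tox3* encodes an HMG-box protein of the nucleus, and the study asked which transcripts change in its absence. The labels do not state the sex of the animals or whether a library came from 1 animal.

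A heterotrimeric G protein consists of an alpha subunit that binds guanine nucleotides and a tightly joined pair of beta and gamma subunits. An activated receptor makes the alpha subunit exchange GDP for GTP, and the GTP-bound alpha subunit and the freed beta-gamma pair then act on enzymes and ion channels. RGS proteins speed up GTP hydrolysis by the alpha subunit and so shorten the signal, mostly on alpha subunits of the Gi/o and Gq classes. In the cerebellum this cycle serves, among others, metabotropic glutamate receptors and GABA-B receptors of Purkinje cells, and Purkinje cells are a known site of *Rgs8* expression.

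Of the 56 genes, 3 were upregulated in cKO cerebella and none was downregulated. The upregulated genes were *Rgs8* and *Rgs4*, which encode small RGS proteins of the R4 class, and *Gng4*, which encodes a gamma subunit found mainly in neurons. Each was between 1.57-fold and 1.72-fold higher in cKO. A further 4 genes, all for alpha subunits (*Gnal*, *Gnai2*, *Gnai1* and *Gnaz*), were higher by a smaller amount, between 1.22-fold and 1.32-fold. The most abundant subunit genes, *Gnb1* and *Gnb2*, did not pass the test.

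In these counts, 47 of the 56 genes passed the filter on low counts and were tested by edgeR's quasi-likelihood method, and p was adjusted after Benjamini and Hochberg over all 17505 genes tested. A gene was called at an adjusted p under 0.01 together with a log2 fold change beyond 0.5. The 3 upregulated genes were 6.38% of the 47, while 3.03% of all tested genes were upregulated and 3.63% were downregulated. Without regard to the size of the change, 7 of the 47 genes (14.9%) were higher at an adjusted p under 0.01 and 0 were lower, where 6.55% and 7.24% of all tested genes were. At an unadjusted p under 0.05, edgeR found 18 of 47 genes higher and 5 lower, beside 3179 and 3320 of all 17505. DESeq2 found 18 and 4 of 55, and limma 17 and 5 of 45, and no gene was called lower with any of these tools. The 3 cKO values lay above the 3 Ctrl values in 18 genes (38.3%) and below them in 6 (12.8%), compared with 20.4% and 20.1% of all tested genes. The median log2 fold change of the 47 genes was 0.11, with a range from -1.10 to 0.79, and that of all tested genes was -0.01. Taken library by library, the median difference from the control mean was between -0.00 and 0.02 in Ctrl and was 0.11, 0.16 and 0.16 in cKO. Fold changes are given on the log2 scale throughout, as cKO minus Ctrl.

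**Figure D1:**
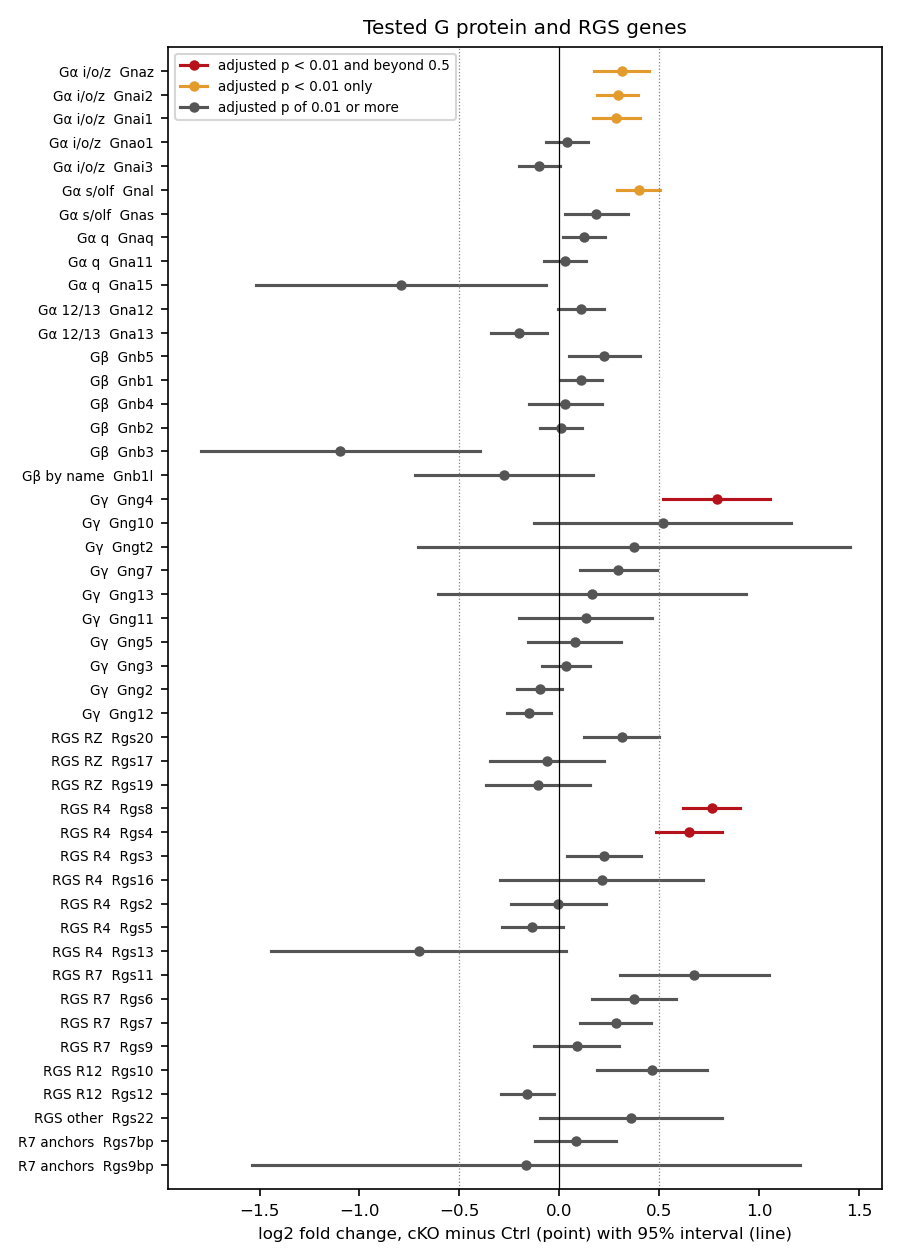
Log2 fold change of the 47 tested genes, grouped by role, with points for the fitted value and lines for its 95% interval (edgeR, n = 3 per group); dotted lines mark the threshold of 0.5 on either side. *Gng4*, *Rgs8* and *Rgs4* (red) lie beyond it at 0.79, 0.76 and 0.65, the 4 alpha subunit genes in orange lie between 0.29 and 0.40, and the widest intervals belong to genes of low count.

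Library totals lay between 15391854 and 17178478 counts, and levels are given as CPM, in which counts are divided by TMM-normalized library totals, or, where genes are compared with each other, as FPKM, which also corrects for gene length. *Tox3* itself was counted at 64.3, 63.0 and 64.4 CPM in Ctrl and at 55.3, 63.2 and 59.2 CPM in cKO. The groups overlapped (log2 fold change -0.11, SE 0.06, adjusted p = 0.252 by edgeR), and the count includes all exons of the gene, so it does not check the labels. By RT-qPCR of P1 cerebella, the study found *Tox3* almost fully lost in this genotype. It also reported *Atoh1* as one of the most significantly affected genes among those lower in the mutant. In these libraries *Atoh1* had 501, 491 and 481 counts in Ctrl and 10, 4 and 4 in cKO, the direction that the labels give. Every direction below is that of the libraries labelled cKO against those labelled Ctrl. Reads of Y-chromosome genes were present in Ctrl 1, cKO 1 and cKO 3 and absent or nearly absent in the others, so the groups were not balanced in this. Summed levels of 4 choroid plexus markers ranged from 57.0 to 109 FPKM in Ctrl and from 6.35 to 591 FPKM in cKO, lowest in cKO 2 and highest in cKO 3.

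*Rgs8* (ENSMUSG00000042671, chromosome 1 from 153653025 to 153700323, plus strand of GRCm38) was counted at 46.5, 43.6 and 45.1 CPM in Ctrl and at 75.1, 73.3 and 80.9 CPM in cKO. All cKO libraries lay well above all Ctrl libraries, and the spread within each group was small against the distance between them. The log2 fold change was 0.76 (SE 0.06, adjusted p = 4.23e-05 by edgeR, n = 3 per group), or 1.70-fold. RGS8 acts as a GTPase-activating protein mainly for Gi/o alpha subunits.

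*Rgs4* (ENSMUSG00000038530, chromosome 1 from 169741477 to 169747642, minus strand) was counted at 66.7, 62.1 and 55.7 CPM in Ctrl and at 102, 92.3 and 94.7 CPM in cKO. Again the groups did not overlap, and the lowest cKO library was well above the highest Ctrl library. The log2 fold change was 0.65 (SE 0.07, adjusted p = 2.50e-04 by edgeR, n = 3 per group), or 1.57-fold. RGS4 acts on Gi/o and Gq alpha subunits, and the protein is known to be short-lived, so that a transcript level need not equal a protein level. *Rgs4* and *Rgs8* lie on the same chromosome but far apart.

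*Gng4* (ENSMUSG00000021303, chromosome 13 from 13784059 to 13827896, plus strand) was counted at 21.9, 18.8 and 17.9 CPM in Ctrl and at 35.8, 28.2 and 36.8 CPM in cKO. Its cKO libraries were all higher than its Ctrl libraries, with cKO 2 nearest to the controls. The log2 fold change was 0.79 (SE 0.12, adjusted p = 0.00131 by edgeR, n = 3 per group), or 1.72-fold. Of the 3 upregulated genes it had the lowest counts and the largest standard error. On log2(FPKM + 1) values without a filter on low values its log2 fold change was 0.69 and its adjusted p was 0.0207 by limma, so it was not called there. Leaving out any 1 library kept all 3 genes called. In whole tissue, more cells that express a gene and more of its RNA per cell cannot be told apart.

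**Figure D2:**
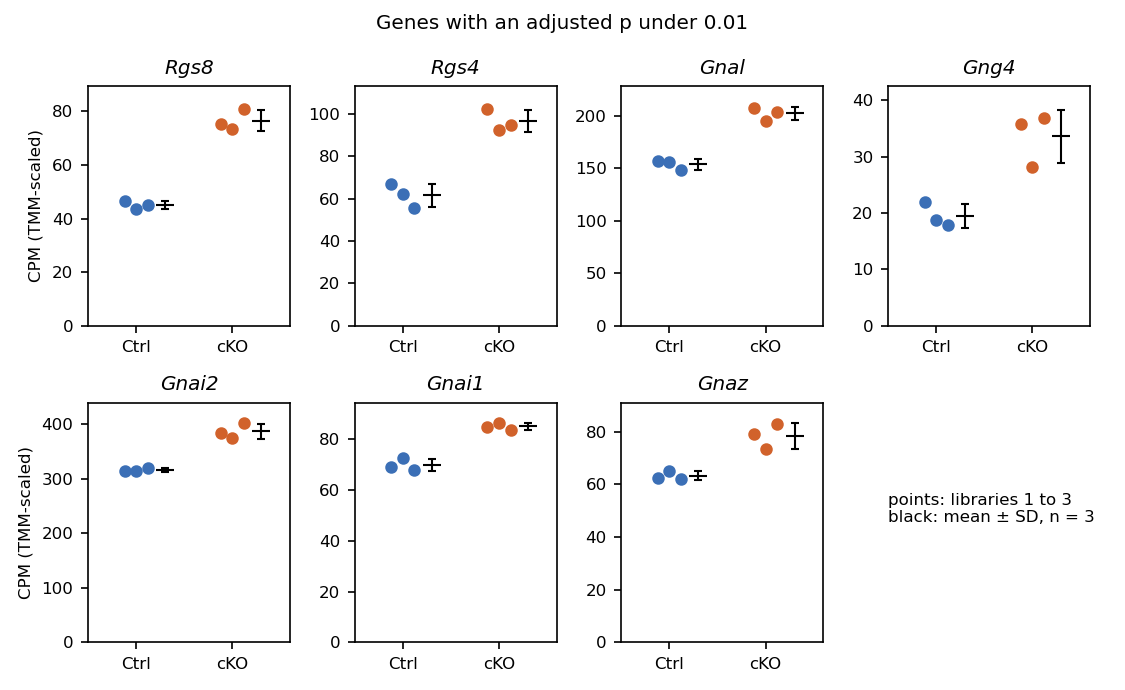
CPM of the 7 genes with an adjusted p under 0.01, 1 panel per gene with its own axis from 0; points are libraries 1 to 3 of Ctrl (blue) and cKO (orange), and black marks give mean ± SD (n = 3). In each of the 7 panels all cKO points lie above all Ctrl points, with the widest relative gap in *Rgs8*, *Rgs4* and *Gng4*.

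The sequence just before the transcription start is shown for the 3 upregulated genes, as the 250 bases upstream of the RefSeq start nearest to the start in the count table, on the strand of the gene (GRCm38.p6). RefSeq listed 3 starts for *Rgs8*, 2 for *Gng4* and 1 for *Rgs4*. The windows were chr1:153652787-153653036 on the plus strand for *Rgs8*, chr1:169747643-169747892 on the minus strand for *Rgs4* and chr13:13783809-13784058 on the plus strand for *Gng4*. Capitals mark matches to the E-box hexamers CAGCTG and CAGATG, the latter written CATCTG when it lies on the other strand. E-boxes of these types are bound by basic helix-loop-helix factors, the family of ATOH1, which the study examined.
Rgs8: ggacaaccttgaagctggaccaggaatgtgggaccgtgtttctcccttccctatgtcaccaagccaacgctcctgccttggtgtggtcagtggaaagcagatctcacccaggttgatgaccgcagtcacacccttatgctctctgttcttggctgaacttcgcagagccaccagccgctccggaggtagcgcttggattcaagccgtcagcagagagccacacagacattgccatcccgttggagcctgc
Rgs4: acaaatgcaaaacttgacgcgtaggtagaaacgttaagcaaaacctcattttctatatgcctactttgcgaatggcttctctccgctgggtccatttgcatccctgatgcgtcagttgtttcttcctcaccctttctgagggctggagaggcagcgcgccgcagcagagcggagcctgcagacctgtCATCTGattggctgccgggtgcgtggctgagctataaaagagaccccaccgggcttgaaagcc
Gng4: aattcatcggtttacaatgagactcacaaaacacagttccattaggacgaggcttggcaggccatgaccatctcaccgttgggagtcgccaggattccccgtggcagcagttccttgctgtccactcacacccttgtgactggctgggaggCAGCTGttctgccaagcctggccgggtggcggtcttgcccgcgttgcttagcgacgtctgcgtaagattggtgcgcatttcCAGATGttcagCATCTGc
The *Gng4* window held 1 CAGCTG and 2 CAGATG matches, the *Rgs4* window held 1 CAGATG match, and the *Rgs8* window held neither hexamer. Both strands were searched, and no base belonged to more than 1 match. Windows were found for 41 of the 56 genes. CAGCTG was present in 4 of them (9.76%) and in 4271 of all 32851 windows, and CAGATG was present in 7 (17.1%) and in 4745 of all windows (14.4%). At least 1 of the hexamers was present in 8 of the 41 windows (19.5%), those of *Gna14*, *Gna15*, *Gnb5*, *Gng4*, *Rgs4*, *Rgs9*, *Rgs13* and *Rgs7bp*, and in 25.5% of all windows. The 41 genes gave 1 window each, whereas all windows can include several starts of a gene, so these shares are on unlike units.

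Among the alpha subunit genes, 4 of the 12 tested were higher at an adjusted p under 0.01, all below the fold threshold, and none was lower. The summed level of all alpha subunit genes was 412 ± 1.92 FPKM in Ctrl and 456 ± 15.1 FPKM in cKO (SD, n = 3). *Gnal* encodes Golf, an activator of adenylyl cyclase closely related to Gs. It was counted at 157, 156 and 148 CPM in Ctrl and at 207, 195 and 204 CPM in cKO. The cKO values were all higher, and the log2 fold change was 0.40 (SE 0.05, adjusted p = 0.000339 by edgeR). *Gnal* (chromosome 18 from 67088336 to 67226792) overlaps *Chmp1b* on the same strand, with 2309 counts over the 6 libraries against 16991 for *Gnal*, so some reads may have been assigned to either gene.

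*Gnai2*, *Gnai1* and *Gnaz* encode alpha subunits that inhibit adenylyl cyclase, and *Gnaz* differs from the others in being insensitive to pertussis toxin. *Gnai2* was the most abundant alpha subunit gene, at 92.3 FPKM over all libraries, and was counted at 314, 313 and 320 CPM in Ctrl and at 383, 374 and 402 CPM in cKO. Its log2 fold change was 0.29 (SE 0.05, adjusted p = 0.00148 by edgeR). *Gnai1* was counted at 68.8, 72.4 and 67.8 CPM in Ctrl and at 84.8, 86.3 and 83.6 CPM in cKO (log2 fold change 0.29, SE 0.05, adjusted p = 0.00360 by edgeR). For *Gnaz* the values were 62.6, 65.2 and 62.0 CPM in Ctrl and 79.0, 73.4 and 83.0 CPM in cKO (log2 fold change 0.31, SE 0.06, adjusted p = 0.00519 by edgeR). In none of these genes did the groups overlap, and in all of them the difference was well under that of *Rgs8*, *Rgs4* and *Gng4*. All of them kept their direction in the other fits, but none stayed under an adjusted p of 0.01 in every fit. The highest adjusted p was 0.0294 for *Gnaz* and 0.0180 for *Gnai1* (both by edgeR) and 0.0106 for *Gnai2* (by limma).

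The remaining genes of the Gi/o class had different values. *Gnai3* was at 154, 152 and 150 CPM in Ctrl and at 144, 138 and 144 CPM in cKO, so its cKO values were the lower ones (log2 fold change -0.10, adjusted p = 0.136 by edgeR). *Gnao1*, which encodes the Go alpha subunit common in neurons, had a log2 fold change of 0.04 with a 95% interval from -0.07 to 0.14. The summed level of the Gi/o/z class was 213 ± 1.58 FPKM in Ctrl and 239 ± 7.53 FPKM in cKO. *Gnai2* made up 40.9% of this sum.

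In the other alpha classes no gene but *Gnal* reached an adjusted p of 0.01. *Gnas*, for the stimulatory Gs subunit, had a log2 fold change of 0.18 (95% interval 0.03 to 0.34, adjusted p = 0.0852 by edgeR). Its FPKM of 16.2 rests on a table length of 11186 bases that spans all its alternative transcripts, so its level beside *Gnal* (30.7 FPKM) is uncertain. *Gnaq* and *Gna11*, which encode activators of phospholipase C beta, had log2 fold changes of 0.12 (0.02 to 0.23) and 0.03 (-0.08 to 0.13). *Gna15*, of the same class, was scarce at 1.24, 1.30 and 1.73 CPM in Ctrl and 0.923, 0.782 and 0.747 CPM in cKO, and its log2 fold change of -0.79 did not pass the test (adjusted p = 0.105 by edgeR). *Gna12* and *Gna13*, which form a class of their own, differed in sign, at 0.11 (adjusted p = 0.166) and -0.20 (adjusted p = 0.0408, both by edgeR). *Gna12* was the more abundant of this pair at 55.4 FPKM.

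Beta subunit genes included the most abundant gene of the whole set, *Gnb1*, at 178 FPKM, which was 58.9% of the beta sum and 16.1% of the sum over all 56 genes. It was counted at 744, 709 and 753 CPM in Ctrl and at 784, 772 and 818 CPM in cKO. The groups did not overlap, but the difference was small (log2 fold change 0.11, 95% interval 0.00 to 0.21, adjusted p = 0.130 by edgeR). *Gnb2* followed at 99.8 FPKM with a log2 fold change of 0.01 (-0.10 to 0.11). *Gnb4*, at 8.10 FPKM, had a log2 fold change of 0.03 (-0.15 to 0.21). *Gnb5* encodes the atypical beta subunit that pairs with RGS proteins of the R7 class in place of a gamma subunit. It was counted at 41.2, 43.1 and 49.2 CPM in Ctrl and at 52.1, 50.6 and 53.2 CPM in cKO (log2 fold change 0.22, SE 0.08, adjusted p = 0.0661 by edgeR). *Gnb1l*, included by name, had a log2 fold change of -0.28 (-0.72 to 0.17) at 1.32 FPKM.

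*Gnb3*, known from cone photoreceptors, had the lowest log2 fold change of the 47 genes but did not pass the threshold, and it was chosen for naming after its values were seen. It was counted at 2.80, 2.41 and 2.76 CPM in Ctrl and at 1.04, 1.82 and 0.872 CPM in cKO. Its cKO values were all lower, and they differed more among themselves than the Ctrl values did. The log2 fold change was -1.10 (SE 0.31, adjusted p = 0.0285 by edgeR). Without cKO 2 it was -1.46 with an adjusted p of 0.00739, which made *Gnb3* a downregulated gene in that fit, and with no filter on low counts it was -1.09 with an adjusted p of 0.00817.

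Gamma subunit genes showed 1 upregulated gene, *Gng4*, and 9 of the 10 tested did not reach an adjusted p of 0.01. *Gng3*, for a neuronal gamma subunit, was the most abundant at 88.2 FPKM, followed by *Gng2* at 55.1 FPKM and *Gng12* at 29.0 FPKM. *Gng4* had a mean of 7.90 FPKM over the 6 libraries and was thus a minor part of the gamma pool. The summed gamma level was 219 ± 7.97 FPKM in Ctrl and 223 ± 3.06 FPKM in cKO. *Gng3* had a log2 fold change of 0.03 (-0.08 to 0.15), and *Gng2* of -0.10 (-0.21 to 0.01). Of the others, *Gng12* was at -0.15 (adjusted p = 0.0471) and *Gng7*, whose product pairs with Golf in the striatum, was at 0.30 (adjusted p = 0.0314, both by edgeR). The remaining tested gamma genes (*Gng5*, *Gng10*, *Gng11*, *Gng13* and *Gngt2*) had log2 fold changes between 0.08 and 0.52 and adjusted p between 0.226 and 0.767 by edgeR. *Gng3* overlaps *Bscl2* on the opposite strand, and the scarce *Gng13* overlaps *Chtf18* (1335 counts over the 6 libraries against 120 for *Gng13*). Whether reads were counted by strand is not given in the sources used here.

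**Figure D3:**
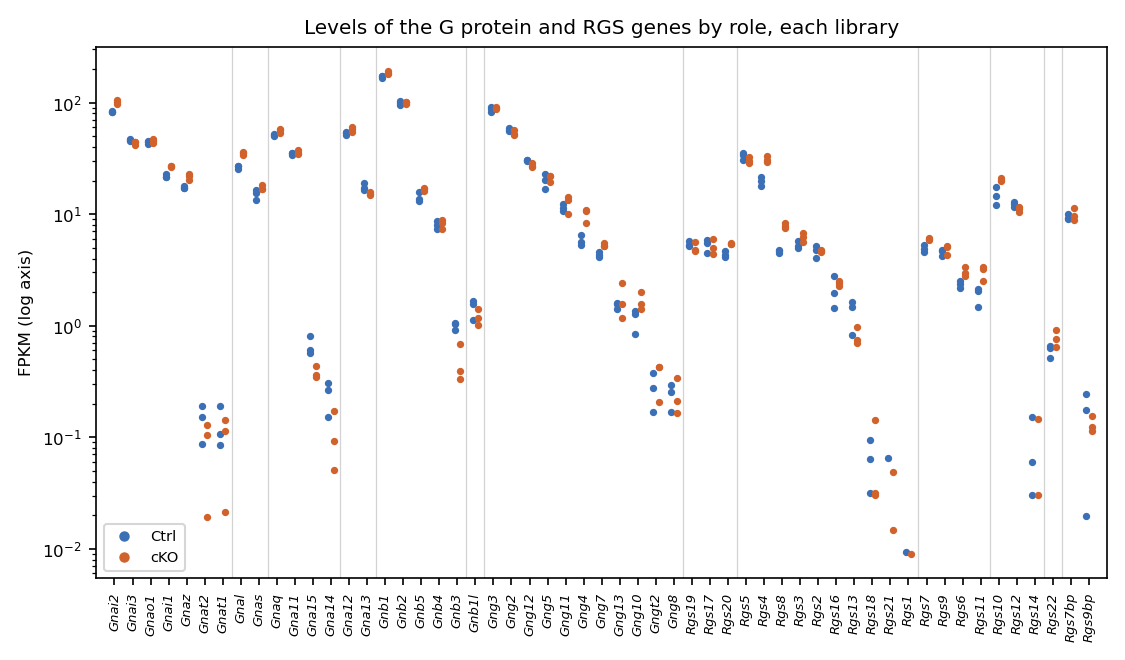
FPKM of the genes in every library on a log axis, ordered by role and, within a role, by mean level; blue points are the 3 Ctrl and orange points the 3 cKO libraries, grey lines separate the roles, values of 0 are not drawn, and *Gngt1*, listed at 0 in all libraries, is left out. *Gnb1* is highest at 178 FPKM, *Rgs5* is the highest RGS gene at 31.8 FPKM, and the separation of the groups is visible in *Rgs4*, *Rgs8* and *Gng4*.

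RGS genes had a summed level of 127 ± 6.43 FPKM in Ctrl and 148 ± 0.976 FPKM in cKO (SD, n = 3), far below the subunits they act on. Of the 17 tested, 2 were upregulated (11.8%) and none downregulated, and 11 had a log2 fold change above 0 and 6 below. Of all 17505 tested genes, 3.03% were upregulated and 8601 had a log2 fold change above 0. Both upregulated genes belong to the R4 class, most of whose members consist of little more than the RGS domain. The summed level of that class was 71.0 ± 4.26 FPKM in Ctrl and 83.4 ± 0.739 FPKM in cKO. *Rgs4* alone had a mean of 19.7 ± 1.75 FPKM in Ctrl and 31.0 ± 1.80 FPKM in cKO, and *Rgs8* of 4.64 ± 0.148 FPKM and 7.89 ± 0.437 FPKM.

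The other R4 genes did not pass the test. *Rgs5*, a gene known for its expression in pericytes, was the most abundant RGS gene at 31.8 FPKM and had a log2 fold change of -0.14 (95% interval -0.29 to 0.02). *Rgs2*, which encodes a regulator selective for Gq, was at -0.00 (-0.24 to 0.23), and *Rgs3* was at 0.22 (0.04 to 0.41, adjusted p = 0.0786 by edgeR). *Rgs16* was at 0.21 (-0.30 to 0.72) and *Rgs13* at -0.70 (-1.44 to 0.03), both at low counts. In level, *Rgs5* was followed by *Rgs4* at 25.3 FPKM over all libraries. *Rgs5* had 33.3 ± 2.57 FPKM in Ctrl and 30.4 ± 1.77 FPKM in cKO, so it stood above *Rgs4* in Ctrl, and the pair did not differ beyond the spread in cKO.

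The R7 class, whose members bind the *Gnb5* product and membrane anchors, had 4 tested genes with log2 fold changes above 0, and none was called. *Rgs6* was at 0.37 (adjusted p = 0.0167), *Rgs7* at 0.28 (adjusted p = 0.0267) and *Rgs9* at 0.09 (adjusted p = 0.550, all by edgeR). *Rgs11* was counted at 8.66, 9.11 and 6.23 CPM in Ctrl and at 14.0, 10.7 and 13.6 CPM in cKO, with no overlap (log2 fold change 0.68, SE 0.17, adjusted p = 0.0150 by edgeR). It was called upregulated by DESeq2 (adjusted p = 0.00522), without a filter on low counts (adjusted p = 0.000212) and, by edgeR, without cKO 2 (adjusted p = 0.00581). *Rgs11* overlaps *Arhgdig* on the opposite strand. The summed R7 level was 13.7 ± 0.646 FPKM in Ctrl and 16.9 ± 0.376 FPKM in cKO. Of the anchors, *Rgs7bp* was at 9.66 FPKM with a log2 fold change of 0.08 (-0.12 to 0.28), and *Rgs9bp*, at 0.138 FPKM, was too scarce for a narrow interval (-1.54 to 1.20).

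In the R12 class *Rgs10*, whose product is a short RGS protein also abundant in microglia, was the most abundant gene at 17.5 FPKM. It was counted at 30.2, 25.3 and 20.7 CPM in Ctrl and at 34.9, 36.4 and 33.6 CPM in cKO. The groups did not overlap, but the Ctrl libraries were spread widely (log2 fold change 0.46, SE 0.12, adjusted p = 0.0214 by edgeR). Without Ctrl 1, the highest control, the log2 fold change was 0.60 with an adjusted p of 0.00478, and *Rgs10* was called upregulated. *Rgs12*, a large protein with several further domains, was at -0.16 (95% interval -0.29 to -0.03, adjusted p = 0.0796 by edgeR). In the RZ class *Rgs20* was at 0.31 (adjusted p = 0.0218 by edgeR), *Rgs17* at -0.06 (-0.35 to 0.22) and *Rgs19* at -0.11 (-0.37 to 0.16). *Rgs20* overlaps *Atp6v1h* on the opposite strand, which had 8730 counts over the 6 libraries against 1990 for *Rgs20*. *Rgs19* and *Rgs17* did not differ in level beyond the spread, at 5.19 and 5.18 FPKM over all libraries. *Rgs22* stands outside these classes, was at 0.687 FPKM and had a log2 fold change of 0.36 (-0.10 to 0.81).

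Genes between an adjusted p of 0.01 and 0.05 were named after their values were seen. There were 6 higher ones (*Rgs11*, *Rgs6*, *Rgs10*, *Rgs20*, *Rgs7* and *Gng7*) and 3 lower ones (*Gnb3*, *Gna13* and *Gng12*). The 9 genes that failed the filter on low counts had between 0 and 16 counts in any library. They were the transducin alpha genes *Gnat1* and *Gnat2* (1 to 9 counts each), *Gna14* (3 to 16), *Gng8* (4 to 9), *Rgs14* (0 to 10), *Rgs18* (1 to 5), *Rgs21* (0 to 4), *Rgs1* (0 to 1) and *Gngt1*, the rod transducin gamma gene, with 0 counts in all 6 libraries. A count of 0 allows up to 3 counts per library. The main fit did not test these genes, and the edgeR fit with no filter on low counts called none of them. At such counts a difference could be missed.

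Genes that act before and after the G proteins were examined in 4 lists with the same fit. Among 22 effector genes, 1 was upregulated (4.55%) and 2 were downregulated, and the median log2 fold change was 0.09. Of all tested genes, 3.03% were upregulated and 3.63% downregulated. The 2 downregulated genes encode subunits of GIRK channels, potassium channels that beta-gamma subunits open. *Kcnj6* was counted at 41.7, 45.2 and 45.4 CPM in Ctrl and at 16.8, 19.7 and 16.9 CPM in cKO. All cKO values were below 50% of the lowest Ctrl value (log2 fold change -1.31, SE 0.09, adjusted p = 1.48e-05 by edgeR), or 2.48-fold lower. *Kcnj3* was counted at 38.1, 40.6 and 37.8 CPM in Ctrl and at 24.9, 22.2 and 17.9 CPM in cKO, again without overlap (log2 fold change -0.84, SE 0.11, adjusted p = 0.000676 by edgeR). *Kcnj9*, a further GIRK subunit gene, was at -0.04 and the scarce *Kcnj5* at -0.46, and neither passed the test. The summed level of the 4 GIRK genes was 15.4 ± 0.526 FPKM in Ctrl and 8.63 ± 0.648 FPKM in cKO (SD, n = 3).

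Adenylyl cyclases are the enzymes that Gs and Golf stimulate and Gi inhibits. Of 9 genes, 8 had a log2 fold change above 0, 3 were higher at an adjusted p under 0.01, and 1 was upregulated, with a median of 0.32. The gene below 0, *Adcy4*, was at -0.14 (adjusted p = 0.667 by edgeR). *Adcy2* was counted at 23.9, 27.1 and 28.0 CPM in Ctrl and at 40.7, 36.1 and 41.2 CPM in cKO, with no overlap (log2 fold change 0.58, SE 0.09, adjusted p = 0.00148 by edgeR). The summed cyclase level was 92.0 ± 3.26 FPKM in Ctrl and 116 ± 4.82 FPKM in cKO. *Adcy1*, named after its values were seen, made up 46.2% of this sum. It was higher below the fold threshold (log2 fold change 0.40, adjusted p = 0.000325 by edgeR). No gene for phospholipase C beta was called (0 of 4), and the median of that group was 0.28. In it *Plcb4* was higher at a smaller fold (0.37, adjusted p = 0.00921) and *Plcb1* was at -0.28 (adjusted p = 0.0362, both by edgeR).

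Among 21 genes for other regulators of the cycle, 1 was upregulated (4.76%, beside 3.03% of all tested genes) and none was downregulated, with a median of 0.02. At an adjusted p under 0.01 and any fold, 3 were higher and 2 lower by edgeR, the lower ones being *Gpsm2* (-0.39) and *Gprin1* (-0.32). The upregulated gene was *Pcp2*, whose product binds Gi/o alpha subunits and which is also a Purkinje cell marker. It was counted at 35.5, 30.4 and 31.4 CPM in Ctrl and at 47.2, 51.1 and 52.8 CPM in cKO (log2 fold change 0.63, SE 0.08, adjusted p = 0.000607 by edgeR). Of 6 further genes for proteins with an RGS domain, including the scaffold gene *Axin1*, 0 were called in either direction by edgeR, with 1 higher and 1 lower at an unadjusted p under 0.05.

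Of 55 receptor genes, 48 were tested, 6 were upregulated (12.5%) and 1 was downregulated, and the median log2 fold change was 0.31. Of all tested genes, 3.03% were upregulated and 3.63% downregulated. At an adjusted p under 0.01 and any fold, 8 receptor genes were higher and 2 lower by edgeR. *Cnr1*, named after its values were seen, was lower below the fold threshold (-0.31, adjusted p = 0.00181 by edgeR). The downregulated gene was *Adra2c*, for an alpha-2 adrenergic receptor coupled to Gi, at 55.3, 47.8 and 57.9 CPM in Ctrl and 32.8, 32.1 and 33.2 CPM in cKO (log2 fold change -0.72, SE 0.08, adjusted p = 0.000310 by edgeR). *Lpar1*, for a receptor of lysophosphatidic acid, was at 33.0, 29.8 and 24.5 CPM in Ctrl and 53.2, 50.1 and 57.5 CPM in cKO (log2 fold change 0.88, SE 0.11, adjusted p = 0.000390 by edgeR). The groups did not overlap in either gene. *S1pr1*, for a sphingosine 1-phosphate receptor, had a log2 fold change of 0.51 (adjusted p = 0.000642) and *Adora1*, for the Gi-coupled adenosine A1 receptor, of 0.60 (adjusted p = 0.000983, both by edgeR). The other 3 upregulated genes, named here after their values were seen, encode the serotonin receptors *Htr1b* (0.74), *Htr7* (0.71) and *Htr6* (1.45), and *Htr6* was scarce, at 0.835 to 1.24 CPM in Ctrl.

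**Figure D4:**
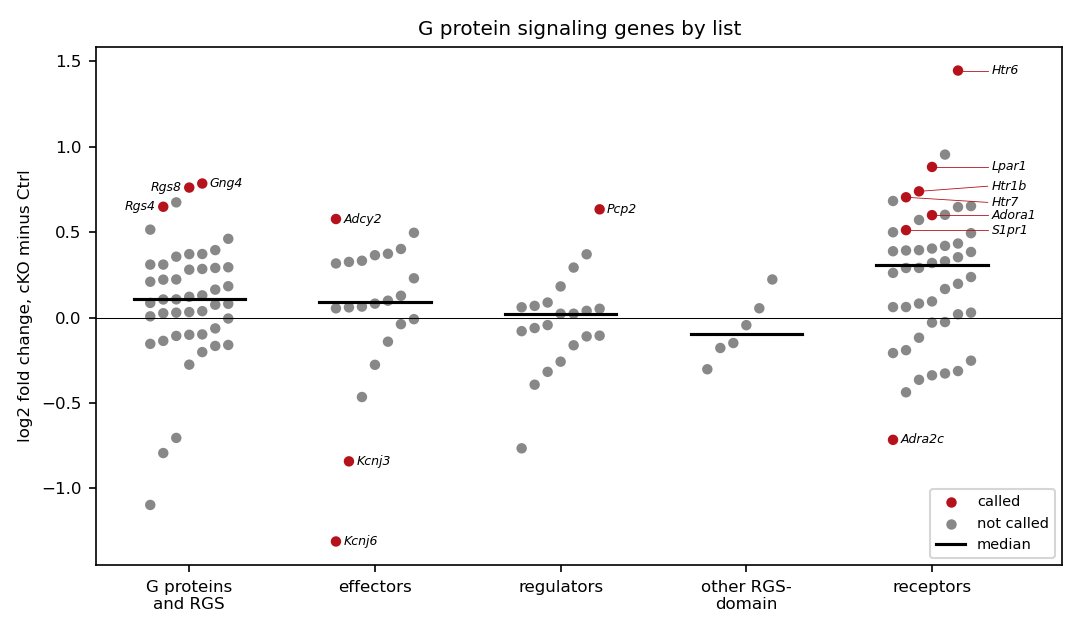
Log2 fold change of every tested gene in the G protein and RGS set and in the 4 lists of related genes; points are genes, red points are called at an adjusted p under 0.01 and beyond 0.5, and black lines are medians. *Kcnj6* is lowest among the called genes at -1.31, *Htr6* highest at 1.45, and the medians are 0.11 for the G protein and RGS set, 0.09 for effectors, 0.02 for regulators, -0.10 for the other RGS-domain proteins and 0.31 for receptors.

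Marker genes of the cell types in the tissue also differed between the groups, and these values stand beside the results above. Of 8 Purkinje cell markers, 5 were upregulated and none downregulated, with summed levels of 260 to 274 FPKM in Ctrl and 380 to 442 FPKM in cKO. Of 7 markers of granule neuron progenitors, all 7 were downregulated, with summed levels of 252 to 267 FPKM in Ctrl and 75.4 to 81.3 FPKM in cKO. Among them *Atoh1*, the transcription factor gene that marks these progenitors, had 501, 491 and 481 counts in Ctrl and 10, 4 and 4 in cKO, so the groups were far apart. Of 7 granule neuron markers, 4 were downregulated and none upregulated, with 639 to 665 FPKM in Ctrl and 450 to 474 FPKM in cKO. Each of these 3 sums separated the groups without overlap. Markers of Bergmann glia and astrocytes (4 of 7 upregulated, 985 to 1022 FPKM in Ctrl and 1226 to 1296 FPKM in cKO) and of oligodendrocyte lineage cells (5 of 7 upregulated, 108 to 118 FPKM and 164 to 176 FPKM) had higher summed levels in cKO, and neither list held a downregulated gene. In the latter list *Pdgfra*, named after its values were seen, was lower without overlap (log2 fold change -0.45, adjusted p = 0.000307 by edgeR). The part of these marker levels in the differences of *Rgs8*, *Rgs4*, *Gng4* and the other named genes was not tested.

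For vascular and other cells, 1 of 8 mural markers was upregulated (65.6 to 70.1 FPKM in Ctrl and 89.4 to 96.7 FPKM in cKO), 1 of 8 microglial markers (45.5 to 47.9 FPKM and 59.4 to 65.4 FPKM) and 2 of 5 meningeal markers (43.7 to 47.5 FPKM and 59.6 to 72.9 FPKM). The upregulated mural gene, *Vtn*, made up 47.0% of the mural sum. Of the 8 mural genes, 6 had a log2 fold change above 0 and 2 below, with a median of 0.19. By edgeR, 0 of 7 endothelial, 0 of 5 erythrocyte and 0 of 4 choroid plexus markers were called. At an unadjusted p under 0.05 these lists held 1 lower, 0 and 2 higher markers. The 5 hindbrain markers were near 0, at 0.121 to 0.399 FPKM in sum, and 2 of 4 midbrain markers were tested, of which 0 were called. The part of these lists in any difference above was not tested.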

How the data were processed

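Bulk poly(A) RNA from P1 cerebella was sequenced as 150 bp paired-end reads in 6 libraries, 3 Ctrl and 3 cKO, grouped by their labels. The authors aligned reads to mm10 with HISAT2 2.0.5 and deposited raw counts per gene made with featureCounts 1.5.0-p3 (versions from the submitters' processing notes). They also deposited FPKM values, which equal the count divided by gene length and by 1 constant per library, between 0.999 and 1.01 times the library total. The strand setting and annotation release are not given in the sources used here, so overlapping genes may share reads.

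The raw counts were analysed with the glmQLFit and glmQLFTest functions of edgeR 4.0.16 (R 4.3.3) after filterByExpr and TMM scaling, across all genes, with Benjamini-Hochberg adjustment. The thresholds, adjusted p under 0.01 with an absolute log2 fold change over 0.5, follow the methods of the study. FPKM was used for levels and, as log2(FPKM + 1) or log2(FPKM + 0.1), in limma 3.58.1 as an alternative. Standard errors were derived from the edgeR test, as the absolute log2 fold change divided by the square root of its F statistic. Intervals (95%) were made from them with a t quantile. Further alternatives were DESeq2 1.42.0, other size factors and filters, and each library left out. The replicate number as a block and the Y-gene level as a covariate were also used. Comparisons within libraries with or without Y-gene reads were added after seeing the data. Scripts were tested on simulated counts. Nothing states that libraries came from separate animals, so p-values measure the spread between these libraries. With 3 against 3, a permutation test cannot give a p under 0.1. Same-group libraries differed by more than sampling noise (chi-square per gene 3.64 to 10.0).

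The genes and lists were chosen with earlier results of these data known. Called genes, genes at an adjusted p under 0.01, the most abundant gene of each class, genes under the filter and at most 4 called genes of each further list were named by rule, and the remaining members are given so that each is accounted for. Upstream sequences are from RefSeq (GRCm38.p6), and 41 of 56 genes matched by symbol. The snRNA-seq and ChIP-seq data of the study were not analysed here.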

Additional observations from a re-analysis of the deposited data

How the results depend on the processing

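The 3 upregulated genes kept their direction in 16 other fits each, with log2 fold changes of 0.66 to 0.80 for *Rgs8*, 0.58 to 0.71 for *Rgs4* and 0.68 to 0.91 for *Gng4*. *Gng4* lost its call in 1 of them, on log2(FPKM + 1) without a filter (adjusted p = 0.0207 by limma, over a range from 1.52e-10 to 0.0207 across its fits). Of the 4 alpha subunit genes with an adjusted p under 0.01, only *Gnal* stayed under it in all 16 other fits. The adjusted p rose to 0.0294 for *Gnaz* without cKO 3 and to 0.0180 for *Gnai1* without Ctrl 3 (both by edgeR). Leaving out 1 library at a time gave 3 to 4 upregulated genes, 0 to 1 downregulated genes, 26 to 31 genes without overlap and a median log2 fold change of 0.077 to 0.135. The lowest median came without cKO replicate 3, and the 1 downregulated gene, *Gnb3*, without cKO replicate 2. With no filter on low counts 1 gene, *Gnb3*, was downregulated as well. On log2(FPKM + 1) without a filter the median was 0.074. At an adjusted p under 0.05 with no fold threshold, 13 genes were higher and 3 lower, and at an adjusted p under 0.01 with no fold threshold 7 were higher. The cause of these shifts was not tested beyond what the settings themselves change. The correlations of same-numbered deviations were 0.24, 0.26 and -0.16. Ctrl 2, cKO 1 and cKO 2 were closest to the library of their own number, and the other libraries were not. With 3 libraries per group, whether replicate numbers pair the libraries cannot be settled. With the replicate block, 3 genes were upregulated, 0 downregulated and 24 without overlap, and the median was 0.11. With the Y-gene level as a covariate the log2 fold changes were 0.74 for *Rgs8*, 0.61 for *Rgs4* and 0.68 for *Gng4*, and all stayed called by edgeR. Among libraries with Y-gene reads alone (Ctrl 1, cKO 1 and cKO 3) the differences were 0.74, 0.56 and 0.73 in the same order. Among those without (Ctrl 2, Ctrl 3 and cKO 2) they were 0.73, 0.65 and 0.62. Each of these splits left 1 group with 1 library, and neither was tested. Depth limits the 9 untested genes and the scarce *Gnb3*, *Gna15*, *Rgs13* and *Rgs9bp*.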
